A study of Rattus norvegicus with 30 samples.

Results

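Cultured rat hepatocytes that received 0.5 mM sodium valproate for 24 h were compared with cultures that received the water vehicle for 24 h. The comparison used 10 of the 30 arrays of the study, 5 per group, chosen from the dose and time in the sample titles. The cells were frozen primary hepatocytes of male Sprague Dawley rats from 1 supplier, grown on collagen-coated plates under a Matrigel overlay and dosed on day 3 of culture. Each array held the RNA of 1 well of a 6-well plate, which the submitters called an independent culture. The sources used here give neither the number of animals behind the cells nor the layout of wells on plates, so the p-values measure the spread between wells. The 0.5 mM, 24 h group was set against the water, 24 h group. The groups given 0.5 mM or water for 48 h were separate wells and provided a second comparison at the same dose. The 10 mM, 24 h group provided values at a second dose and was set against the same water wells. All groups shared the strain, sex, medium and culture history, and water was the vehicle throughout. The study asked how dose and time of exposure change gene expression in these cells, as one of several compounds tested in separate experiments.

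Valproate, a drug for epilepsy and bipolar disorder, is a short fatty acid with a branched chain, and it inhibits class I and IIa histone deacetylases. Hepatocytes join it to coenzyme A and carnitine and break it down partly by beta-oxidation, the stepwise removal of acetyl units from fatty acids in mitochondria and peroxisomes. PPARalpha is the nuclear receptor through which fatty acids and fibrate drugs raise the genes of fatty acid breakdown in rodent liver. ATF4 is the transcription factor of the amino acid and integrated stress response, HIF1 that of the response to low oxygen, and SREBP2 and SREBP1c those of cholesterol and fatty acid synthesis.

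RNA was measured on arrays of 31099 probesets, as signals on a linear scale in arbitrary units. Signals were analysed as log2(signal + 16), so a log2 change understates the change of dim genes. Each gene stands for the brightest of its probesets by mean over all arrays, and 11604 genes passed a filter on dim probesets. A call means an adjusted p under 0.05 in limma's moderated test with Benjamini-Hochberg adjustment over all probesets tested, and "rose" or "fell" is used only of called genes. Errors of log2 changes are SE, errors of signals are SD, and n is 5 per group throughout. The number of arrays, not a read depth, limits the precision.

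The arrays differed in a sign of RNA quality before any gene was compared. Probesets at the 3' and 5' ends of the beta-actin transcript give a ratio that rises when RNA is broken or copied incompletely. Its log2 value was 1.22, 1.37, 1.24, 1.22 and 1.40 in the 0.5 mM arrays, against 1.54, 1.70, 2.76, 1.37 and 1.37 in the water arrays. The means were 1.288 ± 0.088 in 0.5 mM cultures and 1.750 ± 0.583 in water cultures, and water replicate 3 stood far above the other 9 arrays. At 48 h the difference ran the other way, with 1.822 ± 0.689 in 0.5 mM cultures and 1.232 ± 0.056 in water cultures. The ratio exceeded 2 in water replicate 3 at 24 h and in 2 of the 0.5 mM arrays at 48 h. The median signal of an array was 393 to 435 in the 0.5 mM cultures and 356 to 366 in the water cultures at 24 h. Correlations between arrays of the same group at 24 h were 0.945 to 0.963 and no pair of arrays was near identity, so each was kept as 1 replicate. The results below were also computed with the actin ratio as a covariate and without water replicate 3. The same ratio for GAPDH had means of 0.122 in 0.5 mM and 0.232 in water cultures at 24 h, and was a further covariate.

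**Figure D1:**
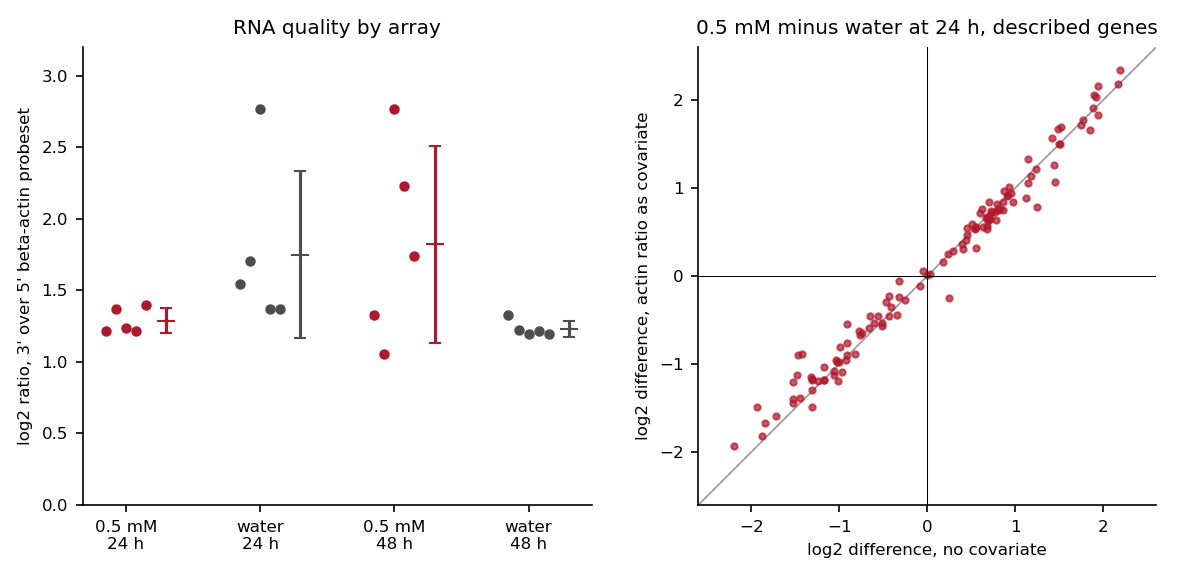
Left, log2 ratio of 3' to 5' beta-actin probesets in each array given 0.5 mM valproate or water, with the group mean and SD; at 24 h the 0.5 mM arrays lie at 1.22 to 1.40 and water replicate 3 at 2.76, and at 48 h the high values are 0.5 mM arrays. Right, log2 difference of 0.5 mM minus water at 24 h for 119 genes without (x axis) and with (y axis) the ratio as a covariate, where points lie near the line of equality and Hdac1 is at 0.25 without and -0.25 with it.

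Hepatocyte identity was clear in both groups. Albumin (Alb), the main plasma protein made by hepatocytes, had signals of 90995, 73156, 78584, 75366 and 88963 in the 0.5 mM cultures and 60899.9, 76217, 69865, 65456 and 87799 in the water cultures. Its log2 difference was 0.18 ± 0.08 (adjusted p = 0.0985). Summed over 9 hepatocyte markers, the signal was 544240 to 659010 in 0.5 mM cultures and 471807 to 609389 in water cultures. Of these markers Cps1 and Cyp3a23-3a1 rose and Hnf4a fell. Both rises lost their calls after quantile normalization and after centring on ribosomal protein genes, each of which gave 0 rises and 2 falls in this list. None of 8 macrophage, 7 stellate cell or fibroblast and 4 endothelial markers tested was called, and of 3 biliary markers Epcam rose by 0.20. That call was lost in 16 of 25 alternative settings, among them the actin covariate, ribosomal centring and the omission of water replicate 3. The summed signals of these lists nevertheless separated in part. They were 33580 to 36180 in 0.5 mM and 28051 to 32282 in water cultures for macrophage markers, and 4827 to 5180 against 4075 to 4542 for stellate markers. Biliary markers summed to 8867 to 9312 in 0.5 mM and 6944 to 8592 in water cultures, and endothelial markers overlapped, at 1424 to 1853 against 1120 to 1552. These sums are of signals as deposited, and the median signal of whole arrays was also higher in the 0.5 mM cultures. After quantile normalization the median change was 0.019 for macrophage, 0.16 for stellate and 0.23 for biliary markers. As deposited these medians were 0.12, 0.13 and 0.20. The part of these cell types in the results was not tested. In such bulk RNA fewer cells of a type and less RNA per cell cannot be told apart.

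At 0.5 mM, 1473 genes rose (12.7% of those tested) and 1871 fell (16.1%). Most changes were small. The median size among called genes was 0.446 on the log2 scale, and 216 genes changed by at least 1, of which 120 rose and 96 fell. All 5 treated values lay above all 5 water values for 1032 genes (8.89%) and below them for 1282 (11%). With the actin ratio as a covariate 1266 genes rose and 1545 fell. Without water replicate 3 the counts were 1367 and 1592. The balance depended on the scaling: 48.4% of called probesets were higher as deposited, 43.1% after quantile normalization and 30.8% after centring each array on ribosomal protein genes. With that centring the median change of all genes was -0.05, against 0.024 as deposited, so small rises in particular are relative to the scaling.

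Genes of fatty acid breakdown rose in both organelles. Of 23 mitochondrial beta-oxidation genes tested, 20 rose and 1 fell, with a median change of 0.39, and of 18 genes of peroxisomal beta-oxidation and biogenesis 16 rose and none fell, with a median of 0.38. The median of all genes was 0.02. The same lists had 20 of 23 and 13 of 18 members whose treated values all lay above the water values. With ribosomal centring the counts were 17 and 12 rises.

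Ehhadh, the peroxisomal bifunctional enzyme of beta-oxidation and a classical PPARalpha target, rose most in these lists. Its signals were 6046, 5659, 6237, 6448 and 6729.7 in the 0.5 mM cultures and 1606, 1677, 1472, 1766 and 1871 in the water cultures. Every treated well lay above every water well, and the log2 change was 1.88 ± 0.12 (adjusted p = 7.43e-13). Decr2, the peroxisomal dienoyl-CoA reductase, had 16786, 14812, 14629.6, 14168 and 12973 in 0.5 mM cultures and 7776, 6873, 5858, 9164 and 7926 in water cultures, a rise of 0.97 ± 0.10 (adjusted p = 1.44e-08). Ech1, an isomerase for unsaturated acyl chains, rose by 0.68 ± 0.06, and Crot, which makes carnitine esters of medium-chain acyl groups for export from peroxisomes, by 0.68 ± 0.09. A dimmer Crot probeset rose by 1.21, and the dimmest was at 0.077 and not called. Phyh, which starts the alpha-oxidation of phytanic acid, had 66862, 57877, 60111, 60393 and 65438 in 0.5 mM cultures against 41206, 39900.3, 45084, 41536 and 44644 in water cultures, a rise of 0.55 ± 0.07 (adjusted p = 4.84e-07). The peroxisomal members not called were Acox3, at -0.11, and Amacr, at -0.10.

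In mitochondria the rises covered activation, transport, dehydrogenation and the later steps. Acsl1, which activates long-chain fatty acids to acyl-CoA, had 19546, 22884, 21436, 21309.7 and 27473 in 0.5 mM cultures and 11799, 12679, 10665, 12074 and 12052 in water cultures (log2 change 0.92 ± 0.08, adjusted p = 1.71e-10). Slc25a20, the carnitine-acylcarnitine carrier of the inner membrane, had 14842, 14266, 14228, 15989.9 and 17233 against 8241, 9103, 7099, 9953 and 10572 (log2 change 0.78 ± 0.10, adjusted p = 4.39e-07). Neither gene had overlapping groups. Acadm, the medium-chain acyl-CoA dehydrogenase, had 16780.2, 15603, 14966, 15616 and 17201 in treated and 8621, 8883, 6854, 10086 and 10162 in water wells, with the lowest water value in replicate 3. Its change was 0.86 ± 0.08 (adjusted p = 8.09e-10) over all arrays and 0.77 without that replicate. Hadh, the short-chain hydroxyacyl-CoA dehydrogenase, rose by 0.83 ± 0.06 (adjusted p = 2.26e-11), and Eci1, an enoyl-CoA isomerase, by 0.72 ± 0.06 (adjusted p = 4.24e-11). The trifunctional protein subunit Hadha rose by 0.39 ± 0.08, and the mitochondrial dienoyl-CoA reductase Decr1 by 0.54 ± 0.07.

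Cpt1a, the carnitine palmitoyltransferase that admits long-chain acyl groups to mitochondria, was the member that fell. Its signals were 2394, 2778, 2688, 2932 and 2841 in the 0.5 mM cultures and 4269.9, 4216, 4074, 2888 and 3566 in the water cultures, which overlapped. The log2 change was -0.47 ± 0.12 (adjusted p = 0.0045), but a second probeset of the gene gave 0.24 and was not called, so the direction depends on the probeset. The fall was not called with the GAPDH ratio as a covariate. Cpt1b, the isoform of muscle, rose by 0.94 ± 0.10 (adjusted p = 1.88e-08).

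Rises were more common among known PPARalpha targets than among all genes, but most of these targets did not rise. Of 25 tested, 8 rose (32%) and 4 fell (16%), against 12.7% and 16.1% of all genes tested, and 13 were not called. Cyp4a1, the omega-hydroxylase of fatty acids that fibrates induce in rat liver, had 25659, 23908, 24057, 23213 and 20612 in 0.5 mM cultures and 6388, 6868, 6947, 7595 and 7178 in water cultures. The log2 change was 1.74 ± 0.08 (adjusted p = 2.28e-16), with no overlap. Fabp1, the fatty acid binding protein of the liver cytosol, had 44642, 40113, 39673, 38820.5 and 39458 against 18141, 18193, 15619, 20117 and 19828 (log2 change 1.14 ± 0.12, adjusted p = 1.35e-08). Vnn1, the pantetheinase of hepatocytes, had 12278, 11493, 11391, 11408 and 12545 against 6328, 6074, 6399, 6363 and 6272 and rose by 0.91 ± 0.07 (adjusted p = 1.04e-10), while Aqp7, a glycerol channel, rose by 0.98 ± 0.12.

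Other targets of the same receptor were lower or not called. Angptl4, a secreted inhibitor of lipoprotein lipase, had 6671, 6660.2, 6599, 6461 and 6308 in 0.5 mM cultures and 7687, 7660.0, 9693, 8163 and 7724 in water cultures, with the highest value in water replicate 3. It fell by 0.32 over all arrays and by 0.26 without that replicate. Pdk4, the kinase that switches off pyruvate dehydrogenase, was at -0.25 ± 0.10 (adjusted p = 0.0545) and Plin2, the lipid droplet coat protein, at 0.036 ± 0.06 (adjusted p = 0.694). A dimmer Pdk4 probeset was at 0.12 and not called, so the Pdk4 probesets differed in sign. Plin2 was at -0.13 after quantile normalization. Acot1, a cytosolic acyl-CoA thioesterase, had 107, 211, 203, 204 and 274 in treated and 96.6, 78.7, 120.2, 123 and 80.6 in water wells, with an adjusted p of 0.0553 for a difference of 0.87 ± 0.33. Among 10 thioesterases tested, the peroxisomal Acot8 rose by 0.70 ± 0.08 (adjusted p = 6.81e-08), Acot13 rose by 0.36 and Acot9 fell by 0.28.

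**Figure D2:**
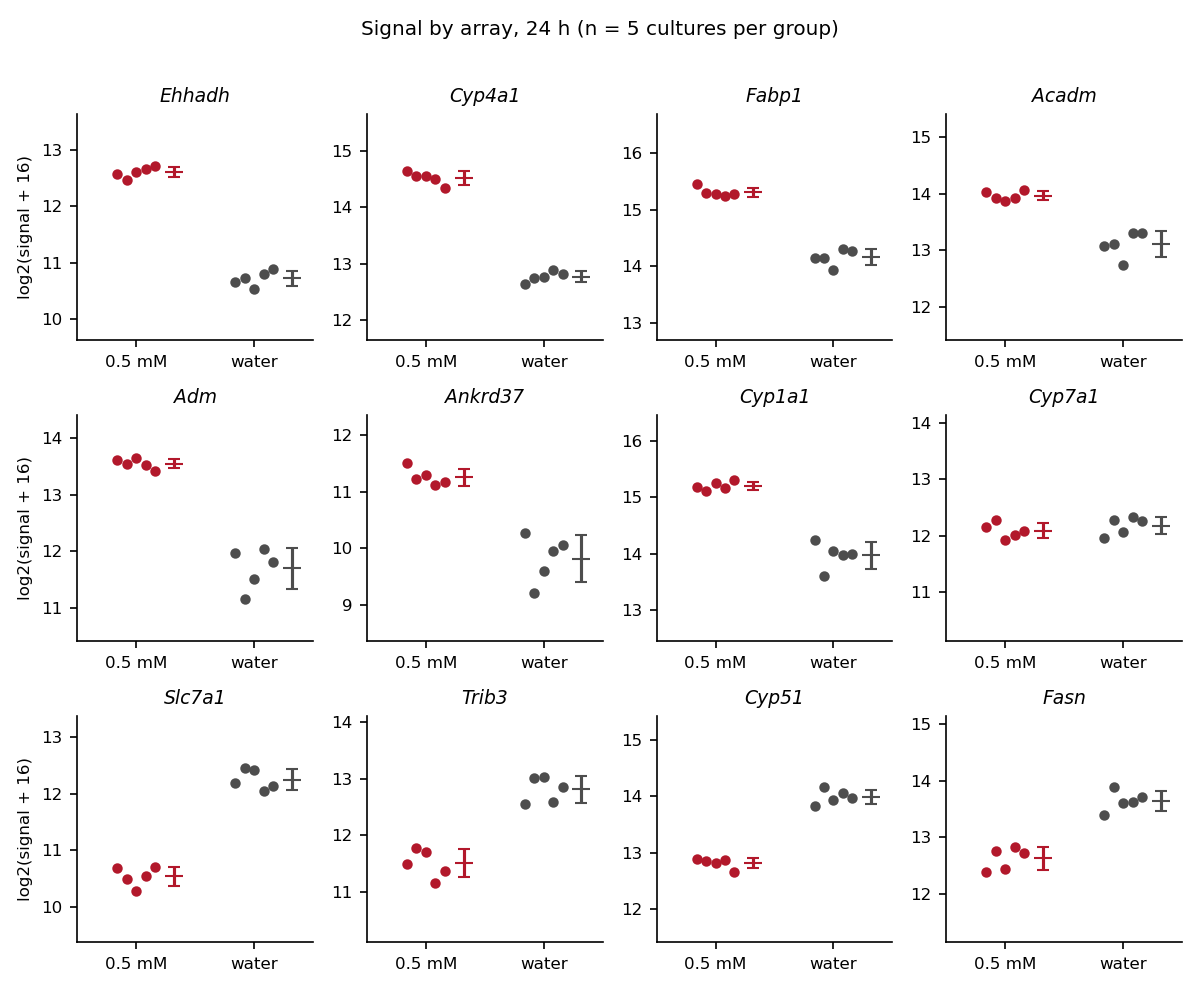
Log2(signal + 16) of 12 genes in the 5 cultures given 0.5 mM valproate and the 5 given water at 24 h; points are arrays, in replicate order, and each bar is the group mean with its SD. The 0.5 mM points lie above the water points in the first 7 genes, overlap them in Cyp7a1 and lie below them in Slc7a1, Trib3, Cyp51 and Fasn.

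Genes induced by low oxygen rose as a further group. Of 20 tested, 15 rose and none fell, with a median change of 0.60. Pfkfb3, a regulator of glycolysis, stood at 0.60 and was not called. Adm, the vasodilator peptide adrenomedullin, had 12543, 11856, 12813, 11760.4 and 11000.3 in 0.5 mM cultures and 3998, 2276, 2905, 4189.9 and 3563 in water cultures. Its rise of 1.85 ± 0.21 (adjusted p = 1.21e-07) was the largest of the list. Ndrg1, a stress-responsive gene of differentiation, had 4378, 5026, 4398, 3931 and 4163 against 2201, 1019, 2339, 1202 and 1251, and Ankrd37, an ankyrin repeat protein, had 2878, 2371, 2483, 2205 and 2275 against 1209.9, 573, 759, 975 and 1048. These rose by 1.52 ± 0.18 and 1.44 ± 0.18 (adjusted p = 2.84e-07 and 3.1e-07). On the log2 scale water wells spread more than treated wells in both genes, and even the highest water well lay under the lowest treated one.

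Other members of this list serve glycolysis, secretion and oxygen sensing. Ero1a, the oxidase that forms disulfide bonds in the endoplasmic reticulum, had 13353, 12659.7, 13391, 13263 and 13790.4 in 0.5 mM cultures against 6049, 4122, 7109, 4056 and 4265 in water cultures (log2 change 1.41 ± 0.14, adjusted p = 9.65e-09). Egln3, a prolyl hydroxylase that marks HIF for degradation, had 13794, 14981, 16138, 14921 and 13774 against 7882, 5417, 9286, 5837 and 5502 and rose by 1.15 ± 0.19 (adjusted p = 3.88e-05). Slc2a1, the glucose transporter GLUT1, had 2298, 2034, 2099.9, 1883 and 2045 against 1282, 1161, 1467, 1197 and 1240.2 and rose by 0.70 ± 0.13. Bnip3, which removes mitochondria by autophagy, had 33849, 35427, 36694, 34391 and 37267 against 24945, 22161, 21074, 22555 and 23756 and rose by 0.63 ± 0.08. Hexokinase Hk2 rose by 0.77 ± 0.19 with groups that overlapped. The growth factor gene Vegfa had 7501, 6879.6, 6484, 6722 and 7114 in 0.5 mM cultures against 5127, 3625, 6195, 4156 and 4124 in water cultures and rose by 0.60 ± 0.13. The prolyl 4-hydroxylase P4ha2 was not called, at -0.05 ± 0.11. In Ndrg1, Ero1a, Egln3 and Vegfa, water replicates 1 and 3 were the brightest water wells, so the spread was not limited to the well with the high actin ratio. With the actin ratio as a covariate 17 members rose, and without water replicate 3, 16 did.

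The oxygen-response element to which HIF1 binds contains the letters ACGTG or GCGTG. Promoters of these genes were read from RefSeq, build GRCr8, as the 250 bases before the annotated start. Of the 20 tested genes 17 had such a window and 12 held the letters on either strand, among them 8 of the 12 called genes with a window. Of 27457 rat genes with a window, 39.6% held them, so their presence is common. Ankrd37 (chr16:53001257-53001506, plus strand), Slc2a1 (chr5:138002272-138002521, plus strand) and Bnip3 (chr1:203154963-203155212, minus strand) are shown as the called genes with the largest changes, a match and a single start. Capitals mark matches on either strand, and each sequence runs 5' to 3' along the gene's strand.
Ankrd37: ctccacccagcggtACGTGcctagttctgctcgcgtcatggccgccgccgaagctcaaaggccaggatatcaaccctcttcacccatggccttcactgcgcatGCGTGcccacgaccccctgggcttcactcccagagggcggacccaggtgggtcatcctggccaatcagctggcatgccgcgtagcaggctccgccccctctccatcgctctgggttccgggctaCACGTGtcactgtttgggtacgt
Slc2a1: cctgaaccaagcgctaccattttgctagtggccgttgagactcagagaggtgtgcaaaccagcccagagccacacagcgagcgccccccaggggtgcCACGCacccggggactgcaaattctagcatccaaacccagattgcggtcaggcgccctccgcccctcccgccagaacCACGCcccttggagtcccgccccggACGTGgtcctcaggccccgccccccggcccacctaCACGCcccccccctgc
Bnip3: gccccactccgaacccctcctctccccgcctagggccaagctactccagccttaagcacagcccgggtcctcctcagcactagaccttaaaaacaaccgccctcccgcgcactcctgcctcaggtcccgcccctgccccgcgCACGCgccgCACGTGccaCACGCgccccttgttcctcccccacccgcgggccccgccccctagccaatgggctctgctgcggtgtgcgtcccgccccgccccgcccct
Adm, Egln3, Hk2 and Vegfa, which also rose, held neither of these letters in their windows, and P4ha2, which was not called, held 5 matches.

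Genes of the amino acid response had the lowest median of the lists examined. Of 32 tested, 22 fell and 2 rose, with a median change of -0.62. Slc7a1, the importer of arginine and lysine, had 1629, 1418, 1231, 1479.9 and 1661 in 0.5 mM cultures and 4695, 5618, 5483, 4224 and 4485 in water cultures, and fell by 1.71 (SE 0.09, adjusted p = 1.27e-14). A dimmer probeset of Slc7a1 stood at -0.22 and was not called. Chac1, which degrades glutathione, had 2474, 1971, 1977, 2031 and 1788 against 4949.6, 5152, 4899, 4940.1 and 5386, and Trib3, a pseudokinase that restrains ATF4, had 2872, 3485, 3330.1, 2273 and 2623 against 5985, 8272, 8379, 6093 and 7399. Each fell by 1.31 (adjusted p = 7.91e-13 for Chac1 and 1.19e-08 for Trib3). The other Trib3 probesets fell by 1.27 and 0.55. Fgf21, the fasting hormone of liver that both ATF4 and PPARalpha control, had 3227, 3108, 2863, 3620.4 and 3052 in 0.5 mM cultures and 7260.1, 8357, 5471, 9614 and 9393 in water cultures, with a change of -1.31 ± 0.12 (adjusted p = 2.83e-09). No treated well overlapped a water well in any of these genes.

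Enzymes and carriers of amino acid supply were lower together with them. Asns, asparagine synthetase, had 5559, 4972, 5573, 5102 and 4601 in 0.5 mM cultures against 11289.5, 12341, 12238, 12504 and 12453 in water cultures, and changed by -1.24 ± 0.06 (adjusted p = 1.73e-15). Phgdh, the first enzyme of serine synthesis, had 5043, 4779, 4415, 4409 and 4691 against 9406, 10393, 12594, 10043 and 10523 (log2 change -1.17 ± 0.09, adjusted p = 4.24e-11). Psph, the last enzyme of that route, fell by 0.82, and the cystine carrier Slc7a11 by 1.04. The aminoacyl-tRNA synthetases, which load amino acids onto transfer RNA, were represented by Yars1, Sars1, Aars1 and Wars1, and each fell. Yars1 had 4456, 5018, 5678, 4199 and 5160.3 in 0.5 mM cultures and 11096, 13159.6, 14143, 12192 and 10318 in water cultures and fell by 1.31. Sars1 fell by 0.99 and Aars1 by 0.74. Nars1, at -0.20, was not called. Pck2, the mitochondrial phosphoenolpyruvate carboxykinase, had 919, 826, 788, 679 and 979 against 2079, 2452, 2494, 1617 and 1959, a change of -1.32 ± 0.13 (adjusted p = 1.35e-08).

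Regulators of this response differed among themselves. Atf4 itself had 24826, 23224, 24344, 23507 and 23687 in 0.5 mM cultures and 26524, 30910.0, 27645, 31775 and 36125 in water cultures, a change of -0.35 ± 0.07 (adjusted p = 0.000717). Atf5, a related factor, fell by 1.10. Ddit3, the stress factor CHOP, had 3184, 3464, 3538, 3184 and 2470.5 against 3267, 3230.3, 3214, 3066 and 2973 and did not pass the test (adjusted p = 0.988). The sestrin gene Sesn2 had 709.7, 747, 962, 850.0 and 756 against 1310.3, 1575, 2747, 1239.8 and 1134, with the highest water value in replicate 3, and its fall was 0.91 over all arrays and 0.69 without that replicate. A dimmer Sesn2 probeset was at -0.14 and not called. Against the trend of the list, Ddit4, an inhibitor of mTORC1 that low oxygen also induces, rose by 0.71 ± 0.13, and Shmt2, the mitochondrial serine hydroxymethyltransferase, rose by 0.62 ± 0.10. With the actin ratio as a covariate 21 members fell and 2 rose.

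The letters TGATGNAA, common to elements bound by ATF4 with C/EBP partners, were found in the windows of 8 of the 30 listed genes that had one, on either strand. They lay in 6 of the 21 genes with a window that fell, against 3.58% of the 27457 rat genes. Slc7a1 (chr12:11664238-11664487, plus strand), Fgf21 (chr1:105221377-105221626, minus strand), Chac1 (chr3:126795881-126796130, plus strand) and Trib3 (chr3:161275534-161275783, minus strand) are shown as the falls with the largest changes and a match, from the same build and with capitals marking the match.
Slc7a1: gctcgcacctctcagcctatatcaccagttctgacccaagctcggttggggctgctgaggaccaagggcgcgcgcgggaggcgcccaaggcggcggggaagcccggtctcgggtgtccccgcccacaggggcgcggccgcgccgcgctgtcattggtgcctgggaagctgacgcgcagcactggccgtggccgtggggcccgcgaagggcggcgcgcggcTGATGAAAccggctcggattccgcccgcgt
Fgf21: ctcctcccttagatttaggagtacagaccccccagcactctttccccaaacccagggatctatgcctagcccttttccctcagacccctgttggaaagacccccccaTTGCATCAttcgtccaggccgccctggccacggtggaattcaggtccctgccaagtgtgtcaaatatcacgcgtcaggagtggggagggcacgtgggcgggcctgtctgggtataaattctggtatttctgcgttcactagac
Chac1: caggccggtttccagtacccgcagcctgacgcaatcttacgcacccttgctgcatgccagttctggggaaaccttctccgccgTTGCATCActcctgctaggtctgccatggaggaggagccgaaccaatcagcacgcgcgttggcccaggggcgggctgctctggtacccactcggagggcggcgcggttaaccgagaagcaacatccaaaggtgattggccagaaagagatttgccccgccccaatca
Trib3: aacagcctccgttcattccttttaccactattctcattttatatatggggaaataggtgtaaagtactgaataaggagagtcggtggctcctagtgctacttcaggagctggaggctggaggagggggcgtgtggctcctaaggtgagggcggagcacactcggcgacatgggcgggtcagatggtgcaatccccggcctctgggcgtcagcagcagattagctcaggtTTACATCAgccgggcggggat
The match began 30 bases before the start in Slc7a1, 143 in Fgf21, 167 in Chac1 and 21 in Trib3. No factor binding was measured in these cultures, and a match of letters is not a site.

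Cholesterol synthesis was lower along most of its length. Of 19 genes tested 14 fell and none rose, with a median change of -0.54. Acat2, the thiolase that condenses acetyl-CoA at the start of the pathway, had 4718, 6710.3, 5471, 5733 and 6426 in 0.5 mM cultures and 11752, 13133, 12909.5, 13452 and 14141 in water cultures (log2 change -1.18 ± 0.09, adjusted p = 1.35e-11). Mvd, mevalonate diphosphate decarboxylase, had 1177, 1384, 1274, 1387 and 1219.8 against 2115, 2557, 3089, 2529 and 2772 (log2 change -1.003 ± 0.09, adjusted p = 1.62e-09). Idi1, which isomerises isopentenyl diphosphate, fell by 0.97, and Fdft1, squalene synthase, by 0.82. Cyp51, the lanosterol demethylase, had 7593, 7429.6, 7229, 7453 and 6495 in 0.5 mM cultures and 14585, 18309.7, 15559, 16985 and 16055 in water cultures and fell by 1.17 (SE 0.08, adjusted p = 9.82e-13). Msmo1, which removes the C4 methyl groups, fell by 1.01. All 5 treated wells lay below all 5 water wells in Acat2, Mvd and Cyp51. Srebf2, which encodes SREBP2, had 2351, 2907, 2459.8, 2547 and 2463 against 3270.5, 3557, 4967, 2799 and 2921, with the brightest water well in replicate 3. It was called over all arrays (log2 change -0.43 ± 0.13, adjusted p = 0.0186) but stood at -0.23 with the actin ratio as a covariate (adjusted p = 0.121). Without water replicate 3 it was at -0.30 and not called (adjusted p = 0.0856). The list had 14 falls with that covariate and 14 without water replicate 3, in both cases without Srebf2.

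Fatty acid and triglyceride synthesis had more falls than rises. Of 23 genes tested 12 fell (52.2%) and 3 rose (13%), against 16.1% and 12.7% of all genes tested. The rises were thus near the share of all genes. Acss2, which makes acetyl-CoA from acetate, had 10257, 9469, 9113, 9550.2 and 10166 in 0.5 mM cultures and 18845, 20737, 19433, 20469.5 and 22019 in water cultures (log2 change -1.06 ± 0.06, adjusted p = 7.44e-14). Acaca, acetyl-CoA carboxylase, had 10326, 10247, 8781, 10298 and 11755 against 17743, 18892, 18776, 20684 and 20001 (log2 change -0.91 ± 0.09, adjusted p = 3.93e-09), though a dimmer probeset of it gave -0.13 and was not called. Fasn, fatty acid synthase, had 5332, 6874, 5532, 7232 and 6763 against 10776, 15185, 12458, 12562 and 13432 (log2 change -1.02 ± 0.12, adjusted p = 2.7e-07). Me1, the malic enzyme that supplies NADPH, fell by 0.76, while its other probeset was at -0.20 and not called. On their brightest probesets these 4 genes had no overlap between groups. The members that rose were Gpam, the acyltransferase that begins triglyceride assembly, by 0.73 ± 0.13, Lpin2, a phosphatidate phosphatase, by 0.70 ± 0.14, and Thrsp, by 0.55 ± 0.19. The Thrsp rise was 0.31 with the actin covariate (adjusted p = 0.19). Scd, the stearoyl-CoA desaturase, was not called at 0.13 ± 0.10 and stood at -0.08 after quantile normalization.

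Mitochondrial genes beyond fatty acid breakdown were slightly higher. Of 21 genes of branched-chain amino acid and propionate breakdown 16 rose and 1 fell, with a median of 0.25, and of 35 oxidative phosphorylation subunits 23 rose and none fell, with a median of 0.22. Acad8, isobutyryl-CoA dehydrogenase, had 2357, 2435, 2237, 2468 and 2431 in 0.5 mM cultures and 1594, 1534, 1610.1, 1252 and 1269 in water cultures (log2 change 0.72 ± 0.08, adjusted p = 4.92e-08). Acat1, the mitochondrial acetoacetyl-CoA thiolase, rose by 0.45 ± 0.06, whereas Bckdk, the kinase that inhibits the branched-chain dehydrogenase, fell by 0.44. Sdhd, a subunit of succinate dehydrogenase, had 34122, 31199.9, 32777, 30848 and 33994 against 25469.8, 23929, 21208, 27228 and 25388 (log2 change 0.41 ± 0.07, adjusted p = 3.52e-05), the largest called change of its list. Cox5b, of cytochrome oxidase, rose by 0.30 ± 0.06. Changes of this size were sensitive to scaling. Ribosomal centring gave 7 and 16 rises in these lists, and the actin covariate 12 and 19.

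Sirt3, the deacetylase of mitochondrial proteins, had 7546, 7437, 6672, 7482 and 6517 in 0.5 mM cultures against 4169, 3214, 4218, 4179 and 3901 in water cultures, and rose by 0.86 ± 0.08 (adjusted p = 1.16e-09). Hdac8, a class I deacetylase, had 1638, 1636, 1854, 1719.9 and 1395 against 1064, 1024, 938, 1131 and 867 and rose by 0.71 ± 0.09 (adjusted p = 4.61e-07). Of 20 deacetylases and corepressors tested these were the 2 rises (10%), and Hdac6, Mta1 and Sirt7 fell (15%). Mta1 and Sirt7 were not called with the actin ratio as a covariate, nor was Mta1 without water replicate 3. Hdac1 had 1156, 1416, 1464, 1611 and 1632 against 1281, 1215, 536, 1803 and 1758, was not called at 0.25 ± 0.25, and stood at -0.044 without water replicate 3, which held the lowest value. A dimmer Hdac1 probeset was at -0.0055 and not called. Of 21 genes known to respond to deacetylase inhibitors 4 rose (19%) and 2 fell (9.52%), against 12.7% and 16.1% of all genes tested. Cd9, a membrane tetraspanin, had 6784, 6079, 5727, 5845 and 5306 in 0.5 mM cultures and 3341, 2474, 1904, 3129 and 3003 in water cultures and rose by 1.12 ± 0.15 (adjusted p = 1.31e-06). Cdkn1a, the cell cycle inhibitor p21, was at -0.33 ± 0.16 (adjusted p = 0.142), whereas its second probeset rose by 0.36, so its probesets disagreed in sign. Of 26 cell cycle genes 4 rose (15.4%) and 3 fell (11.5%), near the shares of all genes. Of 15 neuronal genes Stmn1 alone was called (6.67%), at 0.51 ± 0.12 with overlapping groups.

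**Figure D3:**
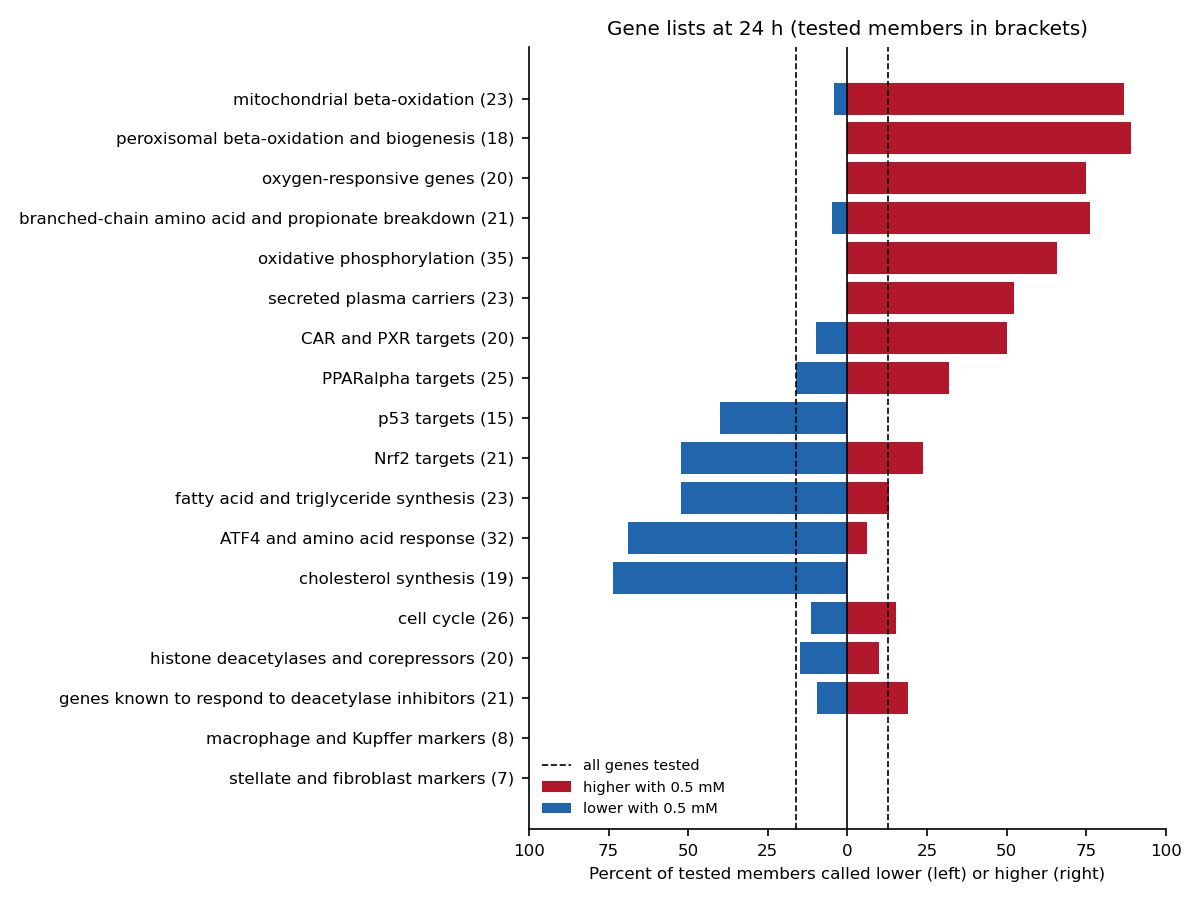
Percent of tested members called higher (right) or lower (left) in 18 gene lists at 0.5 mM against water at 24 h, with the number tested in brackets and the share of all genes tested as dashed lines (12.7% higher, 16.1% lower). The 2 lists of fatty acid breakdown reach furthest to the right, and cholesterol synthesis and the amino acid response furthest to the left.

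Genes of foreign-compound metabolism gave a mixed picture. Among all genes tested 12.7% rose and 16.1% fell. Of 6 targets of the aryl hydrocarbon receptor 4 rose (66.7%) and 1 fell (16.7%). Cyp1a1, the P450 that this receptor controls most tightly, had 37326, 35564, 38904, 36867 and 40449.8 in 0.5 mM cultures and 19427, 12437, 16909, 16188 and 16277 in water cultures (log2 change 1.23 ± 0.19, adjusted p = 1.46e-05). Tiparp, which limits the receptor's activity, had 6142, 5154, 5245, 5501 and 5647 against 3655, 2737, 3128, 3286 and 3114 (log2 change 0.80 ± 0.07, adjusted p = 2.05e-09). Cyp1b1 rose by 0.93 ± 0.18 and Cyp1a2 by 0.55 ± 0.12, and neither overlapped between groups. The member that fell was Nqo1, a quinone reductase, by 0.21. Of 20 targets of CAR and PXR, the receptors of phenobarbital and steroid inducers, 10 rose (50%) and 2 fell (10%). Cyp3a2 had 11497, 11738, 11896, 11933 and 11656 against 8072, 6546, 6714, 7784 and 7506 (log2 change 0.68 ± 0.09, adjusted p = 1.04e-06), Cyp2c6v1 rose by 0.39 ± 0.06 and Cyp3a23-3a1 by 0.23 ± 0.06. P450 genes of a subfamily are close in sequence, and probes may read more than 1 of them. After quantile normalization 5 members of this list rose in place of 10. Of 21 Nrf2 targets 5 rose (23.8%) and 11 fell (52.4%). Rises included Gsta4, a glutathione transferase for lipid aldehydes, by 0.55 ± 0.05, and Hmox1, haem oxygenase, by 0.74 ± 0.14. Falls included Txnrd1, thioredoxin reductase, by 0.61.

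Bile acid, glucose and amino acid genes changed gene by gene. Abcc2, the canalicular export pump, had 11909.6, 14685, 12925, 14995 and 15494 in 0.5 mM cultures and 24909, 27653, 32450.0, 22753 and 24314 in water cultures (log2 change -0.91 ± 0.13, adjusted p = 4.81e-06). Cyp8b1, which makes the precursor of cholic acid, had 11943, 12662, 11788, 13308 and 14089.6 against 6962, 6588, 7498, 7799 and 7844 (log2 change 0.80 ± 0.13, adjusted p = 4.77e-05). Cyp7a1, the enzyme that sets the rate of bile acid synthesis, had 4529, 4942, 3887, 4129 and 4307 against 3985, 4948, 4259, 5122 and 4874 and was not called (log2 difference -0.087 ± 0.20, adjusted p = 0.789). Pck1, the cytosolic enzyme that starts gluconeogenesis, had 1906, 2728, 2422, 1725 and 2488 in 0.5 mM cultures and 968, 775, 1091, 742 and 487 in water cultures, a rise of 1.48 ± 0.20 (adjusted p = 1.6e-06). Pklr, pyruvate kinase of liver, had 4197, 4411, 3537, 4064 and 4610.3 against 7520.5, 7191, 7051, 8764 and 8888 and fell by 0.92 (adjusted p = 3.63e-07), and Khk, which phosphorylates fructose, fell by 0.41. Gldc, of the glycine cleavage system, had 9873, 10256, 9069.5, 10512 and 11229 against 6506, 4796, 5039.7, 4875 and 5232, a rise of 0.95 ± 0.15 (adjusted p = 1.24e-05). Hal, histidine ammonia-lyase, fell by 0.77.

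Plasma protein genes mostly changed little, and some regulators fell further. Of 23 secreted carriers 12 rose (52.2%) and none fell, against 12.7% and 16.1% of all genes tested. The rises were at most 0.36 except in Afm, afamin, which had 13239.8, 13365, 14533, 14256 and 13272 in 0.5 mM cultures and 8236, 8602, 8337, 8630.4 and 9331 in water cultures and rose by 0.67 ± 0.06. After quantile normalization 4 of these carriers rose and 1 fell. Hamp, the iron hormone hepcidin, had 3929, 4287, 2969.9, 3904 and 2838 against 2396, 2606, 2758, 2475 and 2678 and rose by 0.45 ± 0.11 (adjusted p = 0.00194). Hnf4a, a master regulator of hepatocyte genes, had 7994, 7873, 7921, 7453 and 7851 against 11673, 12958, 15854, 10599 and 11124 and fell by 0.65 (adjusted p = 1.49e-05), with the highest water value in replicate 3. The other Hnf4a probesets were at 0.0031 and -0.030 and not called. The clock gene Nr1d2 fell by 0.66 and Clock by 0.55. A dimmer Nr1d2 probeset also fell, by 0.46, and the dimmest was at -0.037 and not called. Dimmer Clock probesets were at 0.32 and -0.77, neither of them called, so the Clock probesets differed in sign. Among p53 targets 6 of 15 fell (40%) and none rose, against 16.1% and 12.7% of all genes tested. Ccng1 fell by 0.52 and Plk2 by 0.43. Myc, a driver of growth, had 3488, 3503, 3095, 3752 and 3822 in 0.5 mM cultures and 6946, 7624, 6575, 7968 and 7898 in water cultures and fell by 1.06 (adjusted p = 7.4e-10).

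Several of the largest changes belonged to none of these pathways. Spc24, a kinetochore protein, had 5049.9, 5494, 4520.2, 4699 and 4109 in 0.5 mM cultures and 1084, 898, 1044, 1111 and 1116 in water cultures, a rise of 2.16 ± 0.11 (adjusted p = 2.87e-15) among water wells that spread little. Tmem255b, a membrane protein, had 1377, 1333, 1226, 1134 and 1479.7 against 243, 108, 673, 101 and 769.6 (log2 change 2.19 ± 0.39), and Fer1l5, of the ferlin family, 5583, 5889, 5192, 5138 and 5205 against 1735, 844, 2407, 1311 and 1163 (log2 change 1.93 ± 0.29). Fam117b rose by 1.92 ± 0.19 and its dimmer probeset by 1.21. Zc3hc1 rose by 1.51 ± 0.12 and Slurp2 by 1.496 ± 0.21. Hba-a3, an alpha globin, had 879, 824, 422, 473 and 788 against 54.3, 76.9, 339.6, 234 and 299, dim and widely spread, with a change of 1.89 ± 0.53 (adjusted p = 0.00947). Among the falls, Arhgef2, which encodes a protein bound to microtubules, had 1225, 1278, 1108, 1225 and 962 in 0.5 mM cultures and 3137, 3658, 5406, 2515 and 2675 in water cultures, with the highest water value in replicate 3. Its fall was 1.52 over all arrays and 1.35 without that replicate. Grb10, an adaptor that restrains insulin signalling, had 426, 493, 510.3, 494 and 379 against 1557, 1463, 1426, 975 and 1076 and fell by 1.45, but 2 dimmer probesets were at 0.087 and 0.093 and not called. Rrp1b fell by 2.19 on its brightest probeset, while the others, at -0.95 and 0.094, were not called. The falls of Plekhm2, Donson, Zfp672, Trim36 and Brf1 were between 1.53 and 1.93, on dim treated signals of 16.5 to 386.

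The 48 h cultures provided separate wells at the same dose. There 1383 genes rose (11.9%) and 1633 fell (14.1%). Of the 24 h calls, 1031 genes were called in the same direction at 48 h, which was 30.8% of the 24 h list and 34.2% of the 48 h list, and 178 were called in opposite directions. With the actin ratio as a covariate 1212 genes were shared in direction and 37 were opposite. Without the 3 arrays whose ratio exceeded 2 the counts were 1191 and 45. Lists of fatty acid breakdown had 20 rises of 23 and 14 of 18 at 48 h, and oxygen-responsive genes 13 of 20. Ehhadh rose by 2.23 ± 0.12 at 48 h, Cyp4a1 by 1.59 ± 0.08 and Fabp1 by 1.08 ± 0.12, and Ero1a rose by 1.91 ± 0.14. Spc24 rose by 2.02 ± 0.11 and Cyp1a1 by 1.02 ± 0.19. The oxidative phosphorylation list had 4 rises of 35 at 48 h, against 23 at 24 h.

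**Figure D4:**
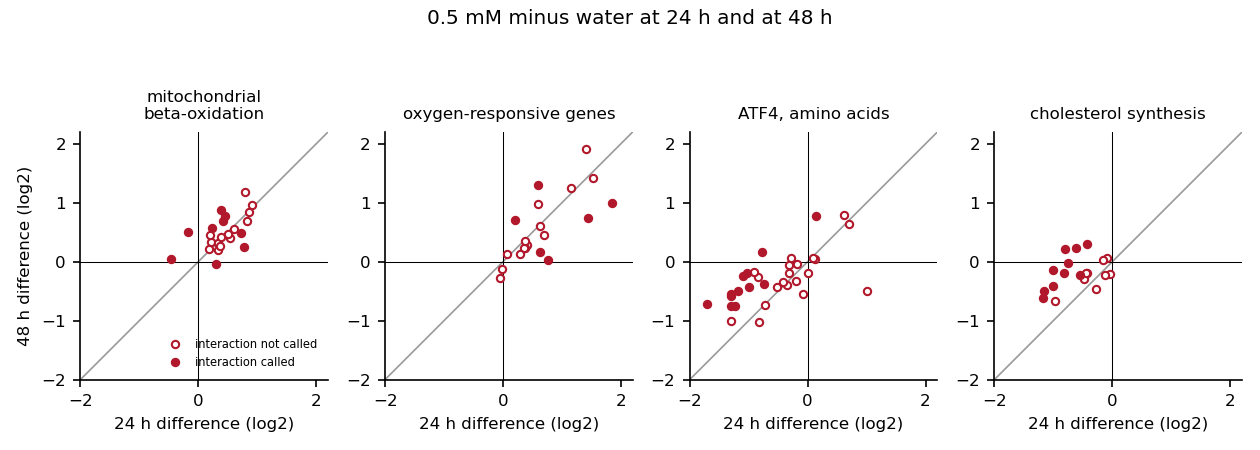
Log2 difference of 0.5 mM minus water at 24 h (x axis) and at 48 h (y axis) for the tested genes of 4 lists; filled points had a called interaction without the covariate, and the grey line marks equal differences. Of the 19 cholesterol synthesis genes, 16 lie above that line.

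Whether the effect itself differed between the times was tested as the 48 h change minus the 24 h change. This interaction was called higher for 1391 genes (12%) and lower for 1125 (9.69%). The counts fell with the actin ratio as a covariate, to 242 genes (2.09%) higher and 145 (1.25%) lower. That ratio ran in opposite directions at the 2 times, so it cannot be fully told apart from the interaction. The cause of the lower counts was not tested. Cholesterol synthesis genes had called interactions in both fits, with 10 of 19 genes higher as deposited and 9 with the covariate. The falls were smaller at 48 h, as for Cyp51, which changed by -1.17 ± 0.08 at 24 h and -0.50 ± 0.08 at 48 h (interaction 0.69 with the covariate, adjusted p = 0.00181). Mvd changed by -0.14 ± 0.09 at 48 h and was not called there. Acaca was at -0.083 ± 0.09 and Acss2 at -0.32 ± 0.06 at 48 h, and their interactions with the covariate were 0.80 (adjusted p = 0.00182) and 0.77 (adjusted p = 5.5e-05). Of 23 fatty acid synthesis genes 11 had a higher interaction as deposited and 4 with the covariate. For the 32 amino acid response genes these counts were 12 and 6, with Slc7a1 at -0.71 ± 0.09 at 48 h (covariate interaction 0.73, adjusted p = 0.000916). None of the 23 mitochondrial, 20 oxygen-responsive and 35 oxidative phosphorylation genes was called for the interaction with the covariate. As deposited 9, 6 and 4 of them were. At the covariate's shares of 2.09% and 1.25% of all genes, lists of this size would hold few calls. Median interactions were 0.022, -0.12 and -0.21 as deposited and 0.11, -0.20 and -0.083 with the covariate, so they did not all move towards no difference.

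Single genes had time courses of their own. Cyp7a1, not called at 24 h, rose by 1.51 ± 0.20 at 48 h (adjusted p = 1.82e-06), and its interaction was 1.60 as deposited and 1.65 with the covariate (adjusted p = 0.00644). Cyp3a2 rose by 1.62 ± 0.09 at 48 h, with a covariate interaction of 1.08 (adjusted p = 5.5e-05), and Afm by 1.25 ± 0.06, with 0.61 (adjusted p = 0.00062). Hnf4a fell at 24 h and rose by 0.28 ± 0.10 at 48 h, and Nr1d2 likewise rose by 0.28 ± 0.08. These are changes of the brightest probesets, from the fit without the covariate. The interactions of Hnf4a and Nr1d2 were 0.93 and 0.94 in that fit. With the covariate they were 0.47 and 0.78 (adjusted p = 0.000337 and 0.000637). The 24 h change of Hnf4a was -0.40 or lower in every alternative. With the covariate its 48 h change was therefore below 0.28, and the rise at 48 h rests on the fit without it. The other Hnf4a probesets were at 0.0031 and -0.030 at 24 h and not called. Cyp1b1, higher at 24 h, was at -0.17 ± 0.18 at 48 h and not called, with a covariate interaction of -1.28 (adjusted p = 0.0178).

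At 24 h the 10 mM cultures were compared directly with the 0.5 mM cultures. Of the genes tested 32.9% were higher at 10 mM and 26.4% lower. Against water, 31.1% were higher and 25% lower at 10 mM, and these changes share the water wells with those at 0.5 mM, so both are given side by side. For Ehhadh they were 1.40 at 10 mM and 1.88 at 0.5 mM, and for Cyp4a1 1.36 at 10 mM and 1.74 at 0.5 mM. Ehhadh was lower at 10 mM than at 0.5 mM by 0.48 and Cyp4a1 by 0.39 (adjusted p = 0.0011 and 8.26e-05). Fabp1 had 11083, 7111, 6383, 5838 and 6601 in 10 mM cultures against 44642, 40113, 39673, 38820.5 and 39458 in 0.5 mM cultures, a change of -1.34 from water at 10 mM and 1.14 at 0.5 mM. Vnn1 was at -0.78 at 10 mM and 0.91 at 0.5 mM, Decr2 at -0.48 at 10 mM and 0.97 at 0.5 mM, and Phyh at -1.08 at 10 mM and 0.55 at 0.5 mM. All 4 rose from water at 0.5 mM and fell at 10 mM, and the direct tests between doses gave adjusted p of 1.64e-17 for Fabp1, 2.63e-18 for Vnn1, 1.06e-13 for Decr2 and 1.46e-18 for Phyh.

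Other genes called at the low dose also differed between doses. Cyp1a1 had 4264, 3711, 5682, 5699.8 and 7457 at 10 mM against 37326, 35564, 38904, 36867 and 40449.8 at 0.5 mM (log2 difference -2.86, adjusted p = 5.11e-14). Cyp8b1 changed from water by -2.51 at 10 mM and 0.80 at 0.5 mM, and Gldc by -1.48 at 10 mM and 0.95 at 0.5 mM. Fgf21 changed by 0.84 at 10 mM and -1.31 at 0.5 mM, with a direct difference of 2.15 (adjusted p = 1.45e-15). Asns was at 0.048 at 10 mM, not called, and -1.24 at 0.5 mM (direct difference 1.29, adjusted p = 2.18e-17). Fasn fell by 2.29 at 10 mM and by 1.02 at 0.5 mM, the same direction at both doses. Adm was not called at 10 mM (0.41) but stood at 1.85 at 0.5 mM (direct difference -1.44, adjusted p = 9.25e-07). Genes with a weak or no call at 0.5 mM included some of the largest rises at 10 mM. Hamp was at 4.27 at 10 mM and 0.45 at 0.5 mM, and Acot1 at 5.42 at 10 mM and 0.87 at 0.5 mM. Pdk4 was at 3.24 at 10 mM and -0.25 at 0.5 mM, and Stmn1 at 3.23 at 10 mM and 0.51 at 0.5 mM. Cyp7a1 was at -3.60 at 10 mM and -0.087 at 0.5 mM.

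**Figure D5:**
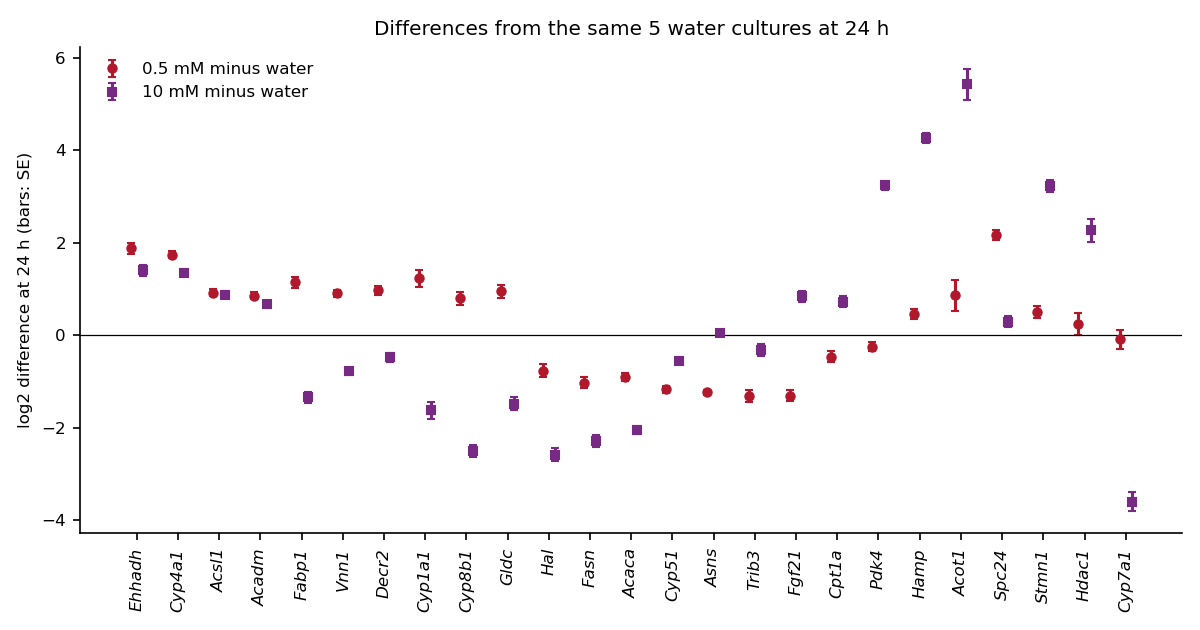
Log2 difference from the same 5 water cultures at 24 h (y axis, bars are SE) for 25 genes, with circles for 0.5 mM and squares for 10 mM. Fabp1 lies at 1.14 for 0.5 mM and -1.34 for 10 mM, while Ehhadh and Cyp4a1 lie above 0 at both doses.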

How the data were processed

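The deposited values were MAS5 signal intensities, linear and not logged, with 1 value for each probeset on each array; MAS5 is named per the submitters' processing notes, and the sources used here give no other upstream step. The trimmed mean of each array was 1500.5 to 1500.7, so the authors' scaling was kept. Probesets were named from the platform annotation, updated through the rat gene table (20758 of 20826 probesets with 1 symbol matched), and 436 probesets with several symbols and 9780 with none stayed unnamed. After leaving out 57 control probesets, log2(signal + 16) was fitted with limma 3.58.1 in R 4.3.3 (lmFit, eBayes with trend, two-sided, Benjamini-Hochberg) on all 30 arrays in 6 groups, with 24 residual degrees of freedom. The 21729 probesets at or above the 30th percentile of mean log2 signal (7.39) were tested.

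The comparison and the gene lists were chosen with earlier results of these data known. Named genes were the 12 largest rises and 12 largest falls with values that do not overlap, up to 4 called members of each list by lowest p, up to 5 genes per direction for the interaction, and a short fixed set, 187 in all. A further 35 genes were added after their values were seen, as examples of roles within the lists, and any other list member given with a single value was also chosen afterwards. Alternatives covered the pseudocount, scaling, filter, prior, arrays fitted, array weights, RNA quality covariates, a run block and each left-out culture, with quantile normalization together with the actin covariate added after seeing the data. The fit was tested on simulated data with known changes. Figures were drawn with matplotlib 3.10.9.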

Additional observations from a re-analysis of the deposited data

Results flagged for a closer look

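In 242 groups of 5 arrays, 16 held a highest or lowest value whose gap to its neighbour, divided by the group's range, passed Dixon's limit of 0.71; chance flags about 1 group in 20. Of these, 7 were in 0.5 mM cultures and 9 in water cultures, of which 3 were in replicate 3. In the 0.5 mM cultures the high value was Fabp1 at 44642 in replicate 1. The low values there were Khk at 9963, Cdkn1a at 2906, Dnali1 at 115 and the GAPDH log2 ratio of 3' to 5' probesets at 0.044, all in replicate 5, Hnf4a at 7453 in replicate 4 and Fam81a at 199 in replicate 2. In the water cultures the high values were Angptl4 at 9693, Hal at 2257 and the beta-actin log2 ratio at 2.76 in replicate 3, and Gldc at 6506 in replicate 1. Low values there were Ddit4 at 3219.8, Cyp1a2 at 8914, Sirt3 at 3214 and Cryaa at 55.6 in replicate 2, and Asns at 11289.5 in replicate 1.

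Over all genes tested, the interaction with time was called higher for 12% and lower for 9.69%. Some of the 119 genes described were named for a large 24 h change or a called interaction. Their count therefore cannot be compared with those shares. The effect of 0.5 mM differed between 48 h and 24 h, by the interaction test in limma, for 69 of the 119. As differences of 48 h minus 24 h on the log2 scale, 22 were higher and were also called with the beta-actin ratio as a covariate: Klf6 0.41, Myc 0.44, Asns 0.49, Chac1 0.56, Acat2 0.57, Afm 0.58, Msmo1 0.59, Fdft1 0.63, Cyp51 0.67, Acss2 0.75, Acaca 0.82, Slc7a11 0.85, Mvd 0.86, Hnf4a 0.93, Nr1d2 0.94, Cyp3a2 0.94, Slc7a1 1.00, Grb10 1.13, Arhgef2 1.41, Cyp7a1 1.60, Brf1 1.87 and Trim36 2.58. A further 7 were lower and called in both fits: Prokr1 -2.88, Dnali1 -2.55, Cyp1b1 -1.10, Stmn1 -0.70, Psma7 -0.53, Acad8 -0.49 and Hamp -0.48. The other 40 were not called with the covariate, and the part of RNA quality in them was not tested. Among those, 25 were higher: Aars1 0.35, Khk 0.35, Cpt1a 0.51, Cyp1a2 0.52, Txnrd1 0.52, Pck2 0.54, Sars1 0.56, Me1 0.57, Abcc2 0.59, Hal 0.61, Clock 0.61, Phgdh 0.68, Vegfa 0.70, Srebf2 0.72, Trib3 0.73, Yars1 0.77, Fasn 0.79, Cdkn1a 0.80, Rrp1b 1.62, Donson 1.70, Plekhm2 2.25, Nfic 2.39, Actmap 2.40, Zfp672 2.54 and Inf2 2.64. The remaining 15 were lower: Cryaa -2.68, Chchd4l1 -2.56, Fam81a -2.28, Hba-a3 -2.13, Hdac1 -1.16, Adm -0.86, Hk2 -0.74, Ankrd37 -0.70, Slc25a20 -0.53, Hdac8 -0.52, Bnip3 -0.48, Crot -0.41, Cdkn1b -0.39, Sdhd -0.37 and Eci1 -0.24.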

How the results depend on the processing

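Of the 222 genes followed through 25 alternatives, 210 were called, 164 of them in every alternative in which they were tested, and 46 lost the call in at least 1. The filter at the 50th percentile removed 16 of these genes. Among the counts, 2500 probesets were higher and 2664 lower at 0.5 mM. Centring on ribosomal protein genes left 1199 higher, and a fold minimum of 1.5 left 1046 higher and 743 lower. With the GAPDH ratio as a covariate 1674 were higher and 1965 lower. Of the 222 genes, 26 lost their call with that covariate and 14 with the actin ratio. Leaving out each culture in turn gave 1997 to 2463 higher and 2260 to 2699 lower. The interaction with time fell to 614 probesets with the actin covariate, 1491 without the arrays whose ratio exceeded 2 and 616 with quantile normalization and the covariate, against 4233; the cause was not tested. Changes of sign occurred in 8 genes, of which Sult1b1 alone was called as deposited. Quantile normalization turned Alb to -0.017, Plin2 to -0.13, Scd to -0.077, P4ha2 to 0.020 and Ddit3 to 0.085. The actin covariate turned Hdac1 to -0.25, P4ha2 to 0.055 and Ddit3 to 0.014, and the GAPDH covariate gave Hdac1 -0.35, Cdkn1a 0.048, P4ha2 0.083 and Ddit3 0.053. Quantile normalization with the actin covariate gave Sult1b1 -0.034, Hdac1 -0.22, Cdkn1a 0.0038, Alb -0.028, Plin2 -0.13, P4ha2 0.10, Ddit3 0.082 and Scd -0.042. Ribosomal centring put Plin2 at -0.038 and array weights put Ddit3 at 0.029. Without water replicate 3, and so without the arrays whose ratio exceeded 2, Hdac1 was at -0.044 and Ddit3 at 0.0053, and over all leave-one-out fits Hdac1 lay between -0.044 and 0.39 and Ddit3 between -0.045 and 0.084. The labels give a running number and no replicate number; with each run of 6 arrays, which holds 1 array of every group, as a block, 2540 probesets were higher and 2690 lower.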
